A study of Mus musculus with 12 samples.

Results

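The malate–aspartate shuttle carries reducing equivalents from cytosolic NADH into mitochondria, and 7 genes that encode its enzymes and carriers are described here in mouse neutrophils and macrophages exposed to calcitonin gene-related peptide (CGRP). They are *Got1*, *Got2*, *Mdh1*, *Mdh2*, *Slc25a11*, *Slc25a12* and *Slc25a13*, and they were taken by gene name from 2 count tables of the same 52636 genes, in both of which each of the 7 was found. The set was chosen by the CGRP and saline levels of *Got1* in macrophages in these same libraries, which were known to differ, so the CGRP differences of the 7 genes are given as a description, with intervals and without a test. All 7 passed the filter on low counts in each cell type.

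The study asked how CGRP, a neuropeptide released by nociceptive sensory neurons, acts on myeloid cells in tissue repair. Wild-type C57BL/6J mice of 8 to 12 weeks supplied the bone marrow, from which cells were enriched with magnetic kits. Neutrophils were used fresh, and monocytes were first kept for 3 days in 10 ng/ml M-CSF, a growth factor that drives their differentiation. The labels call the second population monocyte/macrophage, and it is named macrophages below. Cells of each kind were incubated for 4 h with 1 nM CGRP or with PBS as the saline control, and 3 libraries were made per group (12 in total). The labels do not say whether libraries of a group came from separate mice or cultures, so the intervals and p-values measure the spread between these libraries only, which may be technical.

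In the shuttle, cytosolic malate dehydrogenase (MDH1) reduces oxaloacetate to malate with electrons from NADH, and malate enters the mitochondrion through the oxoglutarate carrier SLC25A11. The mitochondrial dehydrogenase MDH2 makes oxaloacetate again, the aminotransferase GOT2 turns it into aspartate, an aspartate/glutamate carrier (SLC25A12, also called aralar, or SLC25A13, also called citrin) exports the aspartate, and the cytosolic aminotransferase GOT1 completes the cycle. The same cytosolic step can also run towards aspartate, which cells use to make asparagine, arginine and nucleotides.

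The libraries held between 2002559 and 3631989 counts. Reverse transcription started from the poly-A tail, so counts come from the 3′ ends of transcripts and levels are compared within a gene, not between genes. Levels are given as CPM, the counts of a gene relative to the total of its library, scaled by TMM over the 12 libraries, and 3 counts, taken as the floor, corresponded to 0.826 to 1.5 CPM. Each of the 7 members had at least 33 counts in every library. Floors and binomial intervals cover counting error only.

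The labelled cell types were checked against marker genes. The 11 neutrophil markers summed to between 157500 and 236200 CPM in the neutrophil libraries and to between 302 and 446 CPM in the macrophage libraries, with *S100a8* the most abundant in each. The 12 macrophage markers summed to between 36550 and 51690 CPM in macrophages and to between 1798 and 2295 CPM in neutrophils, with *Apoe* the most abundant in each. Neutrophil libraries also held erythroid markers (5713 to 7334 CPM over 5 genes, led by *Hbb-bs*) and eosinophil and basophil markers (1452 to 1780 CPM). In bulk RNA, fewer cells of a type and less RNA per cell cannot be told apart.

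*Got1*, the cytosolic aspartate aminotransferase, was the member with the largest difference between CGRP and saline. In the 3 saline macrophage libraries it had 177, 199 and 145 counts, which is 50.8, 59.6 and 52.1 CPM, and in the 3 CGRP macrophage libraries it had 904, 800 and 608 counts, which is 283, 296 and 306 CPM. The groups lay far apart, and the spread within each was small beside the gap. Saline macrophages averaged 54.2 ± 4.77 CPM and CGRP macrophages 294.9 ± 11.3 CPM (SD, n = 3 each). On the log2 scale *Got1* was higher by 2.45 (SE 0.14, 95% interval 2.16 to 2.74, limma-voom), or 5.45-fold (4.45 to 6.66), which placed it at rank 28 of 9393 genes by log2 fold change. Leaving out each library in turn gave 2.40 to 2.51.

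In neutrophils *Got1* had 34.8, 32.8 and 32.1 CPM with saline and 37.1, 48.1 and 38.1 CPM with CGRP. These groups did not overlap either, but the gap between them was narrow and CGRP replicate 2 stood above the others. The log2 difference was 0.32 (SE 0.15, 95% interval 0.01 to 0.63), and it ranged from 0.18 (without CGRP replicate 2) to 0.41 when each library was left out. Ordered by level, saline neutrophils were lowest, followed by CGRP neutrophils, saline macrophages and CGRP macrophages, and no neighbouring groups in that order overlapped. The CGRP effect on *Got1* in neutrophils minus that in macrophages was −2.13 on the log2 scale (SE 0.19, 95% interval −2.54 to −1.73).

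Beside this difference in macrophages, the marker sums of neutrophils, macrophages and B cells were also higher with CGRP. The neutrophil marker sum was 302 to 395 CPM with saline and 417 to 446 CPM with CGRP, although none of the 8 neutrophil markers tested passed the threshold (adjusted p under 0.05) in limma-voom. The macrophage marker sum was 36550 to 41210 CPM with saline and 45280 to 51690 CPM with CGRP, where *Apoe*, a lipid-transport protein, was the 1 of 12 markers past the threshold (log2 fold change 0.46, SE 0.12, adjusted p = 0.0263, limma-voom). The B cell sum was 31.3 to 33.6 CPM with saline and 37.6 to 40.6 CPM with CGRP, nearly all of it from *Cd79b*, with *Cd79a* and *Ms4a1* at 0 in every macrophage library. The part of these shifts in the *Got1* difference was not tested.

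**Figure D1:**
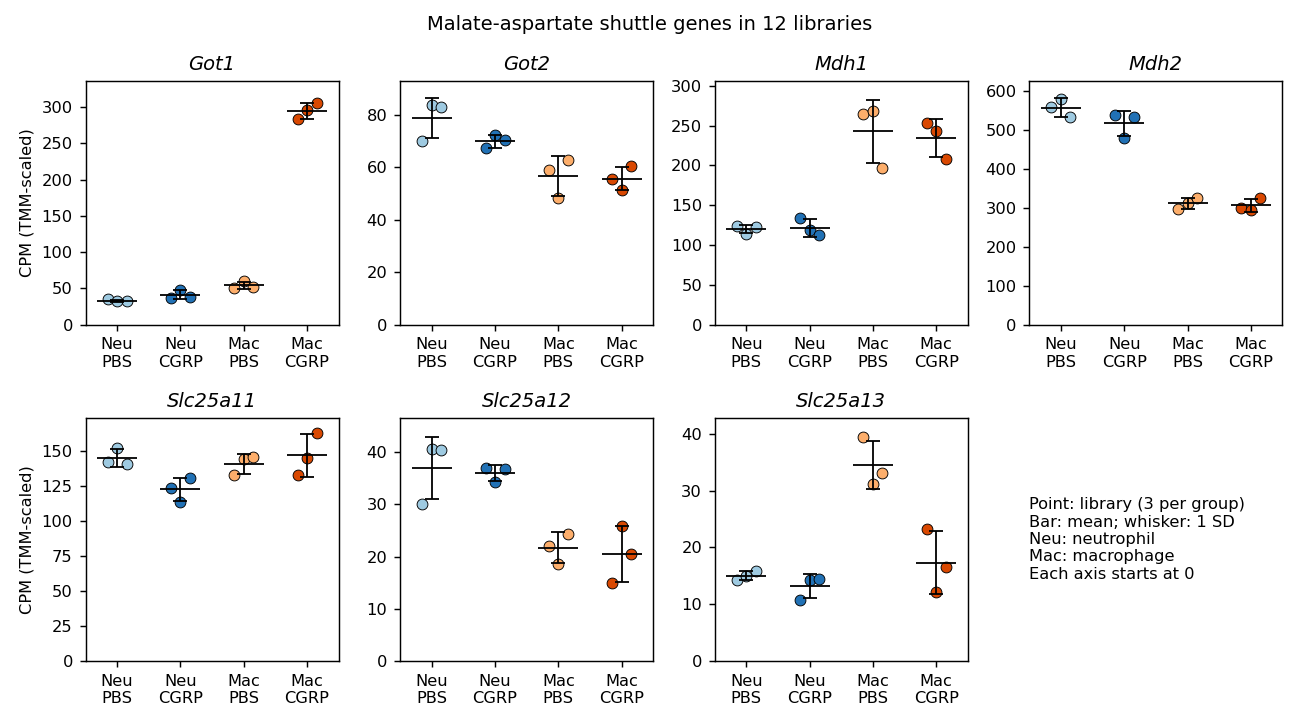
Level of each shuttle gene in every library (vertical axis, TMM-scaled CPM, starting at 0), by cell type and treatment (horizontal axis); points are libraries, bars the mean and whiskers 1 SD (3 libraries per group). *Got1* stands at 283 to 306 CPM in CGRP macrophages and at 32.1 to 59.6 CPM elsewhere, and *Slc25a13* is lower in CGRP than in saline macrophages.

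*Got1* lies on chromosome 19 of GRCm38 (43499752 to 43524605, minus strand). None of the 31-base sequences of its transcripts occurs in another annotated gene, no annotated gene overlaps it, and its paralogue *Got1l1* had 0 counts in all 12 libraries. The 250 bases before its start (RefSeq, GRCm38.p6, chr19:43524606-43524855, minus strand) lie outside annotated exons and are shown because CGRP signals through cyclic AMP, whose response element is a short motif that can be looked for there. Capitals mark CCAAT, the CCAAT box, or its reverse complement ATTGG, and TTGCATCA, the reverse complement of TGATGCAA, an element of the kind bound by C/EBP–ATF dimers.
Got1: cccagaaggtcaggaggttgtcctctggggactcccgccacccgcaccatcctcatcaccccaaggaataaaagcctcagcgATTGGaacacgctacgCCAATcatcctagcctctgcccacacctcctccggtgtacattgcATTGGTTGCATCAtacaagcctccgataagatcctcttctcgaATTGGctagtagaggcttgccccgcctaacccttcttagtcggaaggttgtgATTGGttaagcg

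Motifs were searched on both strands of windows from 250 bases before to 50 after each RefSeq start, for 32851 windows in all, and all 7 members had a window. The *Got1* window held no cyclic AMP response element (TGACGTCA, in 1.79% of all windows) and no TGACG, its core (20.8%). It held TGATGCAA, which 0.895% of windows had, and 6 copies of CCAAT, a number that 26 windows (0.0791%) reached, against 37.4% with 1 or more. The sixth copy follows the start and is not in the printed stretch. The ATTGG and TTGCATCA that run together in the sequence are next to each other and do not overlap. Of the other members, *Mdh2* had TGACGTCA, which holds TGACG on both strands, and *Slc25a13* had a single TGACG. Both are shown in 30 bases, with the match in capitals, to set them beside *Got1*, which had neither.
Mdh2, chr5:135778511-135778540, plus strand, within an exon of the gene annotation: ggagagaatcgTGACGTCAggcctcgctcg
Slc25a13, chr6:6217169-6217198, minus strand, across the annotated start: cagccaatgggcTGACGgcacccgcatgac

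The other cytosolic enzyme gene, *Mdh1* (chromosome 11, 21556787 to 21572367, minus strand), encodes the malate dehydrogenase that takes electrons from cytosolic NADH. With saline and with CGRP it had means of 243 ± 39.7 and 235 ± 23.8 CPM in macrophages and of 120.4 ± 5.44 and 122 ± 11.5 CPM in neutrophils (SD, n = 3). Its CGRP and saline groups overlapped in each cell type. The log2 differences were −0.04 (SE 0.15, 95% interval −0.35 to 0.27) in macrophages and 0.04 (SE 0.10, 95% interval −0.17 to 0.24) in neutrophils.

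The mitochondrial enzymes lay close to 0 in the same comparison. *Got2* (chromosome 8, 95864134 to 95888547, minus strand), the mitochondrial aspartate aminotransferase, differed by −0.02 (SE 0.16, 95% interval −0.36 to 0.33) in macrophages and by −0.15 (SE 0.11, 95% interval −0.39 to 0.08) in neutrophils. *Mdh2* (chromosome 5, 135778480 to 135790398, plus strand), the mitochondrial malate dehydrogenase, differed by −0.02 (SE 0.12, 95% interval −0.28 to 0.24) and by −0.10 (SE 0.08, 95% interval −0.26 to 0.07). The macrophage intervals of *Got2*, *Mdh1* and *Mdh2* thus reach no further than 0.36 from 0, whereas that of *Got1* begins at 2.16. *Got2* shares 57% of its 31-base sequences with other annotated genes, most of them with *Gm10874*, but 3.4% over the last 500 bases, where these counts arise, and *Gm10874* and the pseudogene *Got2-ps1* had 0 counts.

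Among the carriers, *Slc25a13* (chromosome 6, 6041218 to 6217173, minus strand), the aspartate/glutamate carrier citrin, differed most in macrophages. There it had 137, 104 and 92 counts with saline, or 39.3, 31.2 and 33.1 CPM, and 74, 33 and 33 counts with CGRP, or 23.2, 12.2 and 16.6 CPM. Every CGRP library was below every saline library, and the CGRP libraries were the more spread. Saline libraries averaged 34.5 ± 4.26 CPM and CGRP libraries 17.3 ± 5.54 CPM (SD, n = 3 each), and the log2 difference was −1.01 (SE 0.24, 95% interval −1.51 to −0.51). Without CGRP replicate 1 it was −1.29, and without CGRP replicate 2 it was −0.76. In neutrophils it had 14.2, 15.04 and 15.9 CPM with saline and 10.7, 14.4 and 14.5 CPM with CGRP, groups that overlapped (log2 difference −0.19, SE 0.21, 95% interval −0.63 to 0.26).

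*Slc25a12* (chromosome 2, 71271063 to 71367749, minus strand), the other aspartate/glutamate carrier, had 22.1, 18.6 and 24.4 CPM in saline macrophages and 15.04, 25.9 and 20.6 CPM in CGRP macrophages. The groups overlapped widely, with a log2 difference of −0.11 (SE 0.23, 95% interval −0.61 to 0.38), and in neutrophils it was −0.01 (SE 0.15, 95% interval −0.32 to 0.30). *Slc25a11* (chromosome 11, 70644196 to 70647479, minus strand), the oxoglutarate/malate carrier, had 142, 152 and 140.5 CPM in saline neutrophils and 123, 114 and 131 CPM in CGRP neutrophils. All 3 CGRP libraries were lower than the saline libraries, by −0.23 on the log2 scale (SE 0.09, 95% interval −0.43 to −0.04), while in macrophages the groups overlapped and the difference was 0.06 (SE 0.13, 95% interval −0.23 to 0.34). *Rnf167*, with 62 to 691 counts, overlaps the start of *Slc25a11* on the opposite strand but shares none of its last 500 bases.

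Groups that did not overlap were found for 2 of 7 members in each cell type, against 24.1% of genes in macrophages and 17.8% in neutrophils, and nothing is read from this count, since the genes were chosen with these differences known. The median log2 difference of the 7 members was −0.02 in macrophages, where it was 0.00 over all genes, and −0.10 in neutrophils, where it was again 0.00. The CGRP effect in neutrophils minus that in macrophages was 0.80 for *Slc25a13* (SE 0.32, 95% interval 0.14 to 1.47) and within 0.30 of 0 for *Got2*, *Mdh1*, *Mdh2*, *Slc25a11* and *Slc25a12*.

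**Figure D2:**
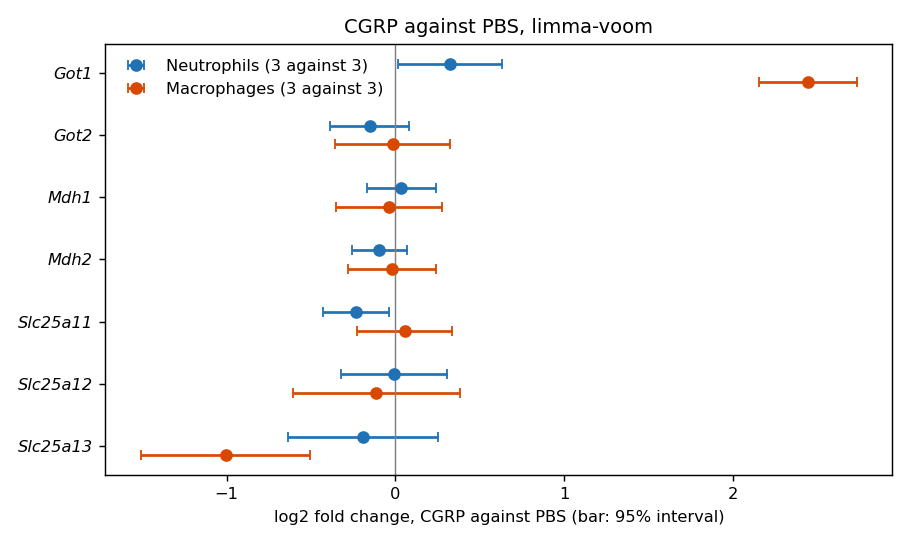
Log2 fold change of CGRP against saline (horizontal axis) for each shuttle gene (vertical axis) in neutrophils and macrophages, 3 libraries against 3; points are limma-voom estimates and bars 95% intervals. *Got1* in macrophages stands alone at 2.45, *Slc25a13* in macrophages is at −1.01, and the other values lie between −0.23 and 0.32.

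Shares within a pair of genes do not depend on the scaling of libraries, and they were taken for the cytosolic and mitochondrial enzymes of the same reaction and for both aspartate/glutamate carriers. *Got1* made up 45.3% to 55.3% of the counts of *Got1* and *Got2* in saline macrophages and 83.5% to 85.2% in CGRP macrophages, so that the groups were far apart. In neutrophils its share was 27.9% to 33.1% with saline and 35.1% to 40.0% with CGRP, which did not overlap. *Mdh1* made up 37.8% to 47.1% of the counts of *Mdh1* and *Mdh2* in saline macrophages and 39.0% to 45.8% in CGRP macrophages, ranges that largely coincided, and 16.4% to 20.0% in all 6 neutrophil libraries. *Slc25a13* made up 57.5% to 64.0% of the counts of both aspartate/glutamate carriers in saline macrophages. With CGRP its share was 60.7%, 32.0% and 44.6% in the 3 libraries, with exact binomial 95% intervals of 51.4 to 69.4%, 23.2 to 42.0% and 33.0 to 56.6%, so replicate 1 was within the saline range and the others below it. In neutrophils the *Slc25a13* share was 22.4% to 32.1% over the 6 libraries.

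**Figure D3:**
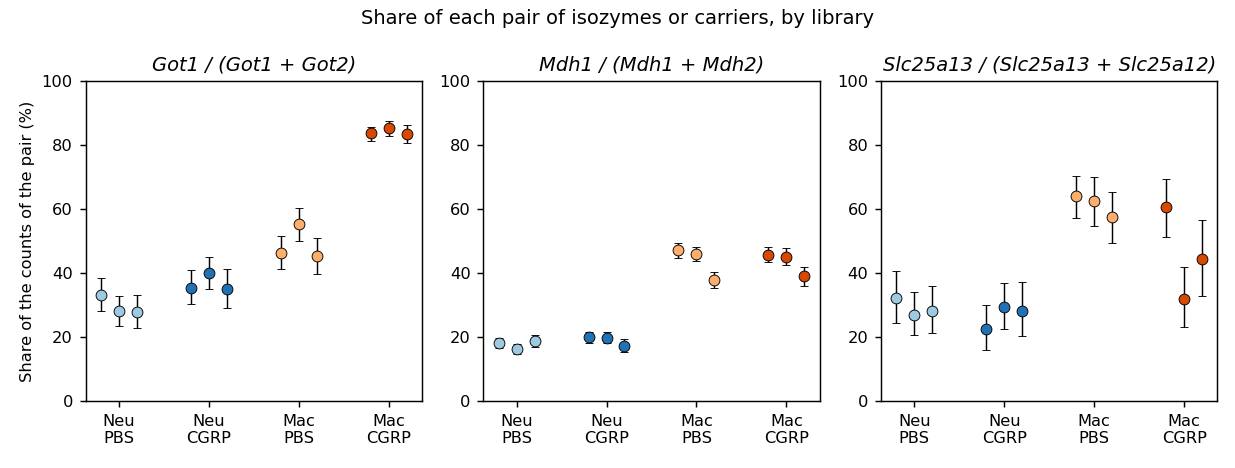
Share of the counts of a pair (vertical axis, percent) taken by *Got1* of *Got1* and *Got2*, *Mdh1* of *Mdh1* and *Mdh2*, and *Slc25a13* of *Slc25a13* and *Slc25a12*, in each library by group (horizontal axis); bars are exact binomial 95% intervals. The *Got1* share is 83.5% to 85.2% in CGRP macrophages and at most 55.3% elsewhere, whereas the *Mdh1* share is at most 20.0% in neutrophils and at least 37.8% in macrophages, with overlapping treatments.

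The cell types themselves were compared in saline libraries. The macrophage levels of *Got1* served to choose the set, so its differences between cell types are given without a test. Cytosolic *Mdh1* and the carrier *Slc25a13* were lower in neutrophils than in macrophages, mitochondrial *Got2* and *Mdh2* and the carrier *Slc25a12* were higher, and *Slc25a11* did not pass the threshold. Thus 5 of the 6 genes other than *Got1* passed it (adjusted p under 0.05, limma-voom over 12 libraries, adjusted over 10694 genes), where 67.9% of all genes did, and the 5 calls were made under each of 9 alternatives and without each library in turn. Cell type, isolation kit, culture and count table changed together and cannot be told apart.

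*Mdh1* had 124, 114 and 123 CPM in saline neutrophils and 264, 268 and 197 CPM in saline macrophages. No neutrophil library reached the lowest macrophage library, and the log2 difference was −1.004 (SE 0.13, adjusted p = 2.927e-07, limma-voom). *Mdh2* went the other way, with 559, 581 and 533 CPM in neutrophils and 297, 314 and 325 CPM in macrophages (log2 difference 0.84, SE 0.10, adjusted p = 7.468e-08, limma-voom). The carriers also differed in opposite directions, with *Slc25a13* lower in neutrophils (−1.19, SE 0.21, adjusted p = 2.214e-05) and *Slc25a12* higher (0.76, SE 0.19, adjusted p = 0.00108). *Got1* was 1.62-fold lower in neutrophils (log2 difference −0.70, SE 0.15), and *Got2* was 1.40-fold higher (0.49, SE 0.13, adjusted p = 0.00244). *Slc25a11* differed by 0.04 (SE 0.11, 95% interval −0.19 to 0.27, adjusted p = 0.745), and its sign turned with library totals in place of TMM (−0.05).

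In CGRP libraries 4 of the 6 genes other than *Got1* passed the threshold, where 64.7% of all genes did. *Got1* differed by −2.83 (SE 0.13). *Mdh1* was lower in neutrophils, with a difference of −0.95 (SE 0.13, adjusted p = 1.025e-06), and *Mdh2* was higher by 0.76 (SE 0.10, adjusted p = 5.388e-07) and *Slc25a12* by 0.86 (SE 0.20, adjusted p = 7.725e-04). *Got2* was higher by 0.34 (SE 0.14, adjusted p = 0.0371), a call lost without neutrophil CGRP replicate 2 (0.34, adjusted p = 0.0713), macrophage CGRP replicate 1 (0.34, adjusted p = 0.0690) or macrophage CGRP replicate 2 (0.28, adjusted p = 0.136). *Slc25a13*, which passed in saline libraries, had a difference of −0.39 here (SE 0.25, adjusted p = 0.176), without macrophage CGRP replicate 1 it was −0.10 (adjusted p = 0.754), and without macrophage CGRP replicate 2 it was −0.63 (adjusted p = 0.0320). *Slc25a11* differed by −0.25 (SE 0.11, adjusted p = 0.0544), and was called without macrophage CGRP replicate 1 (−0.33, adjusted p = 0.0241), macrophage saline replicate 2 (−0.26, adjusted p = 0.0489) or macrophage saline replicate 3 (−0.26, adjusted p = 0.0469).

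**Figure D4:**
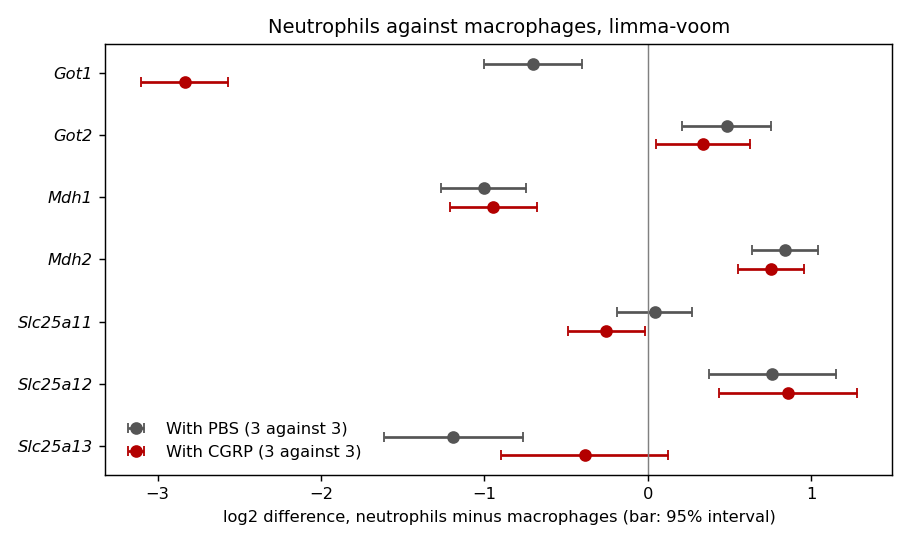
Log2 difference of neutrophils minus macrophages (horizontal axis) for each shuttle gene (vertical axis) in saline and in CGRP libraries, 3 against 3; points are limma-voom estimates and bars 95% intervals. *Got1* moves from −0.70 with saline to −2.83 with CGRP and *Slc25a13* from −1.19 to −0.39, while *Got2*, *Mdh1*, *Mdh2* and *Slc25a12* stay near their saline values.

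Genes of the pathways around the shuttle were counted from 5 lists of 82 genes. The lists were chosen with earlier results of these data known. Their counts and adjusted p-values are therefore a description and not an independent test. In macrophages 62 were tested and 5 rose and none fell with CGRP (limma-voom, adjusted over 9393 genes), and in neutrophils 67 were tested and 3 rose and none fell. In macrophages the 5 were *Gpd2*, *Sesn2*, *Ddit4*, *Slc7a11* and *Glul*, and in neutrophils the 3 were *Ldhc*, *Slc7a11* and *Ldha*. Unadjusted p-values under 0.05 were found for 16 of the 62 and 14 of the 67, beside 19.8% of all genes in macrophages and 12.8% in neutrophils, and edgeR and DESeq2 also called 5 and 3. Of all genes, 7.43% were called in macrophages (3.46% higher and 3.97% lower) and 2.53% in neutrophils (1.51% higher and 1.02% lower). The CGRP effect differed between the cell types for 4 of 68 list genes (interaction term, adjusted p under 0.05), where 2.36% of all genes were called.

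The list of other routes that reoxidise cytosolic NADH holds the glycerol phosphate shuttle and the lactate dehydrogenases. *Gpd2*, the mitochondrial dehydrogenase of the glycerol phosphate shuttle, had 28.4, 21.3 and 35.2 CPM in saline macrophages and 76.5, 96.0 and 102.6 CPM in CGRP macrophages. The groups did not overlap, and *Gpd2* rose (log2 fold change 1.72, SE 0.19, adjusted p = 2.662e-05, limma-voom), the 1 of 4 genes of the list tested in macrophages to pass the threshold. Of all genes in macrophages, 3.46% were called higher. All 4 had a log2 fold change above 0, and 3 of the 4 an unadjusted p under 0.05 (limma-voom), where 19.8% of all genes had one. In neutrophils *Gpd2* was at 87.3 to 109 CPM with saline and 101 to 118 CPM with CGRP (log2 fold change 0.10, SE 0.11), a range that overlapped that of CGRP macrophages (76.5 to 102.6 CPM). *Ldha*, the main lactate dehydrogenase subunit of glycolytic cells, rose in neutrophils from 731 ± 30.8 to 1035 ± 78.4 CPM (SD, n = 3, log2 fold change 0.51, SE 0.08, adjusted p = 3.704e-04) and had 942 ± 38.0 and 1124 ± 20.7 CPM in macrophages (0.26, SE 0.12, adjusted p = 0.227). *Ldhc*, the testis subunit, rose in neutrophils from 14.2 to 15.6 CPM with saline to 173 to 202 CPM with CGRP (log2 fold change 3.67, SE 0.16, adjusted p = 6.311e-12) and had at most 1 count in any macrophage library. *Ldha* and *Ldhc* are neighbouring paralogues, and how the authors' counting divides reads between paralogues is not given in the sources used here.

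In the list of serine, one-carbon and ATF4-linked amino acid genes, 3 of 12 tested rose in macrophages and 1 of 16 in neutrophils. Of all genes, 3.46% were called higher in macrophages and 1.51% in neutrophils. At an unadjusted p under 0.05 (limma-voom) there were 6 of the 12 in macrophages, where 19.8% of all genes were under it. In neutrophils there were 4 of the 16, where 12.8% of all genes were. The log2 fold change was above 0 for 8 and below 0 for 4 of the 12 in macrophages, and for 8 and 8 of the 16 in neutrophils. *Atf4* itself averaged 61.5 ± 8.07 CPM in saline and 49.2 ± 5.23 CPM in CGRP macrophages, and *Mthfd2* 54.3 ± 0.359 and 42.1 ± 7.52 CPM (SD, n = 3). Neither was called. *Sesn2*, a stress-induced inhibitor of mTORC1, had 5.74, 5.09 and 11.1 CPM in saline and 21.6, 24.4 and 21.1 CPM in CGRP macrophages (log2 fold change 1.72, SE 0.29, adjusted p = 0.00106). Saline neutrophils averaged 40.6 ± 9.48 CPM of *Sesn2* and CGRP neutrophils 40.6 ± 1.16 CPM (SD, n = 3 each). *Ddit4*, also known for restraining mTORC1, had 2, 6 and 1 counts with saline and 33, 16 and 13 counts with CGRP in macrophages. The saline libraries lie around the floor, so the fitted log2 fold change (3.10, SE 0.55, adjusted p = 0.00188, limma-voom) is imprecise, and the summed counts per total gave a ratio of 8.13 (exact Poisson 95% interval 4.02 to 18.6, counting error only). Neutrophils had 18 to 20 counts of *Ddit4* with saline and 19 to 31 with CGRP. *Slc7a11*, the cystine/glutamate exchanger, rose in each cell type, from 8.68 ± 1.04 to 19.8 ± 0.922 CPM in macrophages (log2 fold change 1.17, SE 0.24, adjusted p = 0.0053) and from 22.1 ± 0.527 to 44.3 ± 3.57 CPM in neutrophils (1.02, SE 0.15, adjusted p = 3.27e-04; SD, n = 3 in each group). Without neutrophil saline replicate 3, *Slc3a2*, the partner chain of this exchanger, was also called in neutrophils.

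Of the 14 aspartate, glutamate, asparagine and alanine enzymes tested, *Glul*, which makes glutamine from glutamate, was the 1 called in macrophages and 0 were called in neutrophils (edgeR and DESeq2 also 0, and 3 with an unadjusted p under 0.05, where 12.8% of all genes had one). In macrophages 2 of the 14 had an unadjusted p under 0.05 (limma-voom), where 19.8% of all genes had one and 3.46% were called higher. *Glul* averaged 151.5 ± 25.8 CPM in saline and 227 ± 39.0 CPM in CGRP macrophages (SD, n = 3, log2 fold change 0.58, SE 0.16, adjusted p = 0.0346, limma-voom), and 50.5 ± 9.10 and 44.4 ± 7.34 CPM in neutrophils. Its call was lost without saline replicate 1 (0.51, adjusted p = 0.203), saline replicate 2 (0.51, adjusted p = 0.0763), CGRP replicate 2 (0.52, adjusted p = 0.178) or CGRP replicate 3 (0.50, adjusted p = 0.157). Over all alternatives and left-out libraries its adjusted p ranged from 0.00416 to 0.203. *Asns* (asparagine synthetase, which uses aspartate) and *Psat1* (phosphoserine aminotransferase of serine synthesis, which uses glutamate) were not called, with *Asns* at 27.1 ± 2.33 and 24.5 ± 3.76 CPM in saline and CGRP macrophages and *Psat1* at 28.7 ± 6.92 and 29.1 ± 6.11 CPM (SD, n = 3).

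None of the 22 tricarboxylic acid cycle, malate or oxaloacetate enzymes tested was called in either cell type by limma-voom, edgeR or DESeq2. At an unadjusted p under 0.05 there was 1 in macrophages, where 19.8% of all genes were under it, and 2 in neutrophils, where 12.8% were. Their log2 fold changes lay between −0.34 and 0.44 in macrophages and between −0.35 and 0.14 in neutrophils, with 11 above and 11 below 0 in each. None of the 10 other mitochondrial carriers tested was called by the 3 tools either, with 4 at an unadjusted p under 0.05 in macrophages (19.8% of all genes) and 2 in neutrophils (12.8%), and values between −0.08 and 0.45 and between −0.16 and 0.60. Without macrophage saline replicate 2 *Mpc1*, a subunit of the pyruvate carrier, was called in macrophages. The medians of these lists were −0.01 (cycle) and 0.17 (carriers) in macrophages and 0.00 and 0.16 in neutrophils, beside 0.00 over all genes in each.

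**Figure D5:**
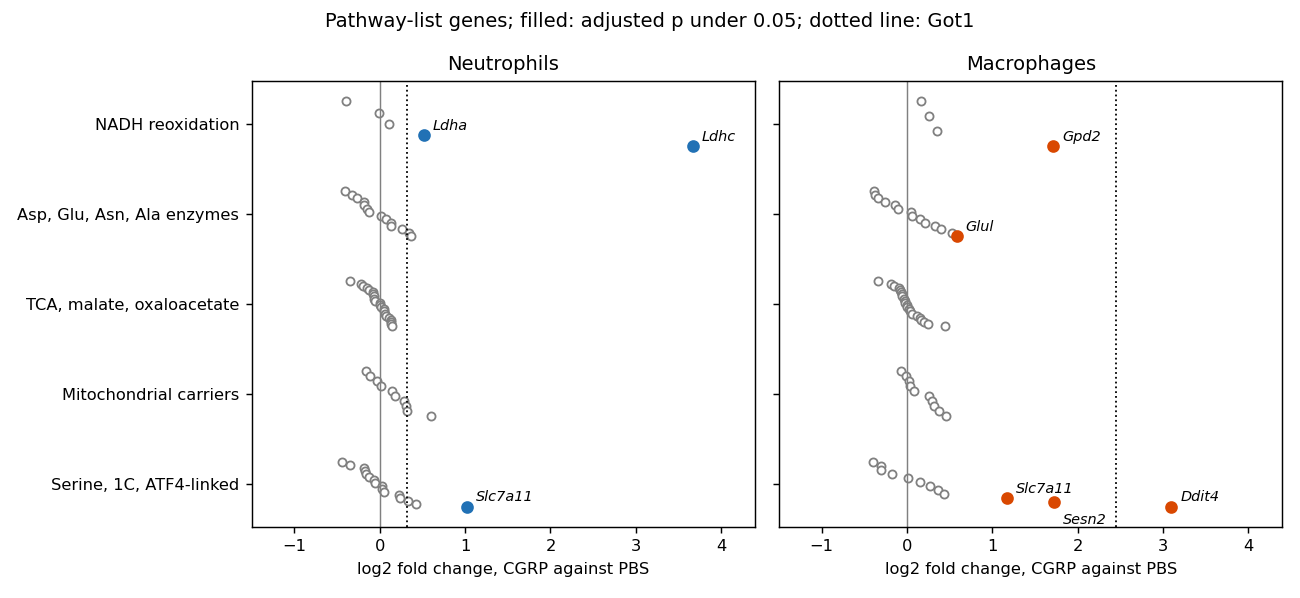
Log2 fold change of CGRP against saline (horizontal axis) of every tested gene of the 5 lists around the shuttle (rows), in neutrophils and macrophages; filled points have an adjusted p under 0.05 (limma-voom, 3 libraries against 3) and the dotted line marks *Got1*. The cycle enzymes lie between −0.35 and 0.44 in both panels, and *Ddit4* in macrophages and *Ldhc* and a few others in neutrophils lie beyond *Got1*.

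The genes nearest to *Got1* were found by the root-mean-square difference of log2 CPM over the 12 libraries, after each cell type was centred on its own mean, among 10694 genes. They were *Mmp19*, a matrix metalloproteinase (0.15), *Mxi1*, a MAX-binding repressor (0.22), *Isy1*, a splicing factor (0.23), *Cd14*, the lipopolysaccharide co-receptor (0.23), and *Nfil3*, a bZIP repressor (0.24). *Mmp19* had 40.5 to 51.8 CPM in saline and 237 to 297 CPM in CGRP macrophages and 13.6 to 17.5 CPM in neutrophils. The log2 differences of the 5 genes were 2.61, 2.61, 1.95, 2.38 and 2.03 in macrophages, in the order above, and 0.23, 0.20, 0.62, 0.79 and 0.05 in neutrophils. Those of *Got1* were 2.45 and 0.32, so the likeness was closer in macrophages than in neutrophils relative to the size of the change. The centring removes the level of each cell type, and *Mxi1*, unlike *Got1*, was higher in saline neutrophils (52.7 ± 6.63 CPM) than in saline macrophages (8.96 ± 1.68 CPM; SD, n = 3). The other 6 shuttle genes ranked between 3945 and 10271 by the same measure, with *Slc25a11* nearest (0.87) and *Slc25a13* furthest (1.25).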

How the data were processed

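Neutrophils and macrophages of mouse bone marrow were measured by 3′ RNA-seq with unique molecular identifiers. Per the paper's methods, the authors collapsed PCR copies with the umi function of nfCore/RNAseq, used STAR for alignment (GRCm38) and featureCounts for counting, and deposited raw counts, in 1 table per cell type. The annotation release, the strand setting and any filter are not given in the sources used here, so reads of overlapping genes on opposite strands may not be told apart.

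Totals were 2002559 to 3631989 counts per library. Genes were kept by filterByExpr, libraries scaled by TMM, and groups compared by limma-voom (two-sided, Benjamini–Hochberg over all genes, threshold 0.05), on the 6 libraries of a cell type for CGRP against saline and on all 12, scaled together, for differences between cell types and in the CGRP effect. Alternatives were DESeq2, its size factors in limma-voom, the quasi-likelihood test of edgeR, library totals without TMM, no filter, at least 10 counts in every library, thinned counts, 1 fit over 12 libraries, the replicate number as a block, and leaving out each library. Those for CGRP neutrophils against CGRP macrophages were added after the data were seen.

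The members and the gene lists were chosen with earlier results of these data known. Named genes were the 7 members, list genes with an adjusted p under 0.05 and their values in the other cell type, the 5 genes nearest to *Got1* (log2 CPM with a prior count of 2), and pseudogenes, paralogues and overlapping genes. *Asns*, *Psat1*, *Atf4*, *Mthfd2*, *Mpc1* and other single genes whose call depended on a setting, and the markers named singly, fell outside this rule and were chosen after their values were seen. Shared sequence was measured in 31-base words over GENCODE transcripts of GRCm38, which held 52403 of the identifiers. Promoter windows of 300 bases came from RefSeq. No library was a copy of another. The steps were tested on simulated data with 200 changed genes (seed 20240327).

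The software was R 4.3.3, limma 3.58.1, edgeR 4.0.16, DESeq2 1.42.0, Python 3.11.15, pandas 2.3.3 and matplotlib 3.10.9.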

Additional observations from a re-analysis of the deposited data

Results flagged for a closer look

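The CGRP effect differed between the cell types for 4 genes of the lists around the shuttle, by an interaction term of limma-voom over the 12 libraries (adjusted over 10694 genes). The effect in neutrophils minus that in macrophages was −1.62 on the log2 scale for *Gpd2* (SE 0.23, adjusted p = 1.168e-04), and it passed the threshold without each of the 12 libraries in turn. For *Sesn2* it was −1.68 (SE 0.34, adjusted p = 0.00571), lost without macrophage saline replicate 1 (−1.53, adjusted p = 0.0534). For *Ddit4*, which had 1 to 6 counts in saline macrophages, it was −2.66 (SE 0.62, adjusted p = 0.0195), lost without macrophage saline replicate 1 (−2.44, adjusted p = 0.112) or 3 (−2.32, adjusted p = 0.0610), neutrophil saline replicate 3 (−2.57, adjusted p = 0.0529) or neutrophil CGRP replicate 1 (−2.44, adjusted p = 0.0511). For *Ldhc* it was 3.35 (SE 0.76, adjusted p = 0.0150). The value is imprecise, since *Ldhc* had at most 1 count in any macrophage library, and how far it depends on a prior count was not tested. The call was lost without each of 8 of the 12 libraries, namely replicates 1 and 3 of every group (adjusted p 0.0507 to 0.128).

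Among all genes the interaction was called for 2.36%. The lists were chosen with earlier results of these data known, so these calls are a description and not an independent test. For *Gpd2*, *Sesn2* and *Ddit4* the saline levels also differed between the cell types, being higher in neutrophils by 1.86, 2.54 and 2.78 on the log2 scale (SE 0.17, 0.27 and 0.54).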

How the results depend on the processing

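The *Got1* difference in macrophages was 2.39 to 2.51 over 9 alternatives and 6 left-out libraries, and in neutrophils 0.18 to 0.41. With the replicate number as a block it was 2.45 and 0.33. Counts of genes called moved more. One fit over 12 libraries called 137 in neutrophils (248 in the separate fit) and 1050 in macrophages (698). Leaving out 1 library gave 138 to 234 in neutrophils (138 without saline replicate 1 or 2 and 153 without CGRP replicate 2), 347 to 765 in macrophages (347 without saline replicate 1, 348 without CGRP replicate 2 and 439 without CGRP replicate 3) and 149 to 328 for the difference in CGRP effect (252; 149 without macrophage saline replicate 1). The block gave 406 for that difference, 289 genes in neutrophils and 1007 in macrophages. With at least 10 counts in every library 4599 genes were called between CGRP cell types (6914), where 7308 genes were tested in place of 10694. Without a filter 1 list gene, *Shmt1*, was also called lower in macrophages. Of 837 recomputed log2 values 28 turned sign, in 13 results whose reported size was at most 0.1117. They were, between CGRP and saline, *Mdh1* (−0.0453 to 0.0963 over all settings), *Slc25a12* (−0.154 to 0.0608), *Gpd2* (−0.0001868 to 0.155 over the libraries left out) and *Sesn2* (−0.159 to 0.169) in neutrophils and *Got2* (−0.132 to 0.0634), *Mdh1* (−0.174 to 0.0494), *Mdh2* (−0.0743 to 0.0127), *Slc25a11* (−0.0135 to 0.122) and *Slc25a12* (−0.309 to 0.125) in macrophages. In the difference in CGRP effect they were *Mdh1* (−0.0207 to 0.199), *Mdh2* (−0.136 to 0.0297) and *Slc25a12* (−0.152 to 0.299), and between saline cell types *Slc25a11*, with library totals (−0.0515) or without macrophage saline replicate 1 (−0.0003674 to 0.0647 over the libraries left out). Causes of these shifts were not tested.

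Deviations of same-numbered CGRP and saline libraries from their group means had correlations of 0.042, −0.013 and 0.137 in neutrophils and 0.059, −0.179 and 0.273 in macrophages. Differently numbered libraries had −0.137 to 0.108 in neutrophils and −0.402 to 0.385 in macrophages. With 3 libraries per group these values cannot decide whether the numbers pair libraries, and the main fits did not pair them. The calls of *Glul* in macrophages and of *Got2* between CGRP cell types were lost with library totals and with thinned counts, and that of *Got2* also without a filter. With library totals *Slc25a3* was called in neutrophils. The block also called *Mpc1* in macrophages, *Adssl1* in neutrophils and *Slc25a11* between CGRP cell types (−0.26, adjusted p = 0.0418), where thinned counts called *Slc25a11* too (−0.28, adjusted p = 0.0498). Thinned counts and the fit over 12 libraries each called 1 mitochondrial carrier in macrophages, and thinned counts called 1 aspartate or glutamate enzyme in neutrophils. In all, 1521 of 1599 recomputed values and counts stayed on their side of the threshold, within 1.5 times the reported count or, where no test was made, within the spread between replicates. Depth limits *Ddit4* in saline macrophages (1 to 6 counts) and *Ldhc* in all macrophage libraries (at most 1 count).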
